A study of Homo sapiens with 12 samples.

Results

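This comparison sets LnCaP cells exposed to nicotine against untreated LnCaP cells across all genes measured. Its members are the 6 LnCaP arrays of a series of 12, and the 11963 genes that the arrays named, which are all the genes measured in the series. LnCaP is an established human prostate cancer cell line that came from a lymph node metastasis, depends on androgen signalling and makes prostate-specific antigen. The treated cells were given 100 µM nicotine tartrate for 24 h, and the controls were labelled untreated, with no vehicle named. Each group held 3 replicates. The other 6 arrays are 3 treated and 3 untreated samples of 22RV1, an established androgen receptor-positive prostate cancer line, under the same treatment. The title of the series concerns immune and inflammatory gene expression in the prostate tumors of people who smoke. No label says that replicates were separate cultures, so the p-values compare the groups with the scatter between arrays only, and that scatter may be technical in origin. Each group is 1 cell line, without stroma or immune cells, and 1 dose at 1 time.

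Nicotine, the main alkaloid of tobacco, opens nicotinic acetylcholine receptors, ion channels that pass sodium and calcium ions. Cells that leave the division cycle, or pass through it more slowly, lose the transcripts of replication and mitosis. The genes used from the start of DNA synthesis are controlled largely by E2F factors. The genes used in mitosis are controlled largely by a complex that contains MuvB, with B-MYB and FOXM1, through promoter elements called CHR and CCAAT. In LnCaP cells, the androgen receptor raises secretory genes such as KLK2 and KLK3 and lipid synthesis, and lowers a second group of genes.

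The values are the deposited log2 expression values, so a difference of 1 is a doubling, and they were compared with limma on all 12 arrays. A gene is called, and said to have risen or fallen, at a Benjamini-Hochberg adjusted p under 0.05 over all 11963 genes. Because the replicate numbers are shared between groups and same-numbered arrays deviated together, a second limma fit held the replicate number within each line as a block. Calls made in that fit alone are named as such. Deviations of untreated replicate 2 correlated at 0.225 with nicotine replicate 2 but at 0.27 with nicotine replicate 1. The data therefore do not settle the pairing of numbers 1 and 2, on which the block calls and pair differences rest. The LnCaP arrays had medians from 6.61 to 6.67 and correlated with each other at 0.989 or more. The cells carried luminal prostate markers: KRT18, a luminal keratin, was at 12.58 ± 0.03 in untreated cells (mean ± SD, n = 3) and KLK3, which encodes prostate-specific antigen, at 13.05 ± 0.07. Of 12 luminal markers, 9 were measured, with a median level of 10.57 untreated and 11.08 with nicotine. These medians belong to different genes, and the median change of the 9 was 0.07. None of the 9 was called without the block, and with it KLK2 was called lower (-0.77) and ACP3 higher (1.07). The 4 measured basal markers had medians of 4.36 and 4.33, the 7 stromal markers 5.66 and 5.35, the 5 leukocyte markers 4.68 and 4.71, and the 4 endothelial markers 5.16 and 5.18. None of the basal, stromal, leukocyte and endothelial markers passed the test in either fit.

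After 24 h of nicotine, 70 genes fell and 13 rose in LnCaP cells. That is 0.585% of all genes lower and 0.109% higher, together 83 genes or 0.694%. The median size of a fall was 0.63 on the log2 scale, given as a change of -0.63, and the median rise was 0.58. Only 2 of the 83 changes reached 1 log2 unit, and both were rises, of PLA2G2A and TUBA1A. For each of the 83 genes, all 3 same-numbered pairs had the same sign and the 3 treated arrays did not overlap the 3 untreated arrays. As the 83 were called on these same arrays, this was largely set by the choice and is no separate support. Over all genes, 10.1% had treated arrays all below the untreated ones and 7.1% had them all above, and 21.8% were lower and 19.1% higher in all 3 pairs. Of the 83 genes, 24 had 30 further probe sets, and 29 of these changed in the same direction, the exception being a probe set of B3GALT4. With the replicate block, 645 genes (5.39%) were called, 392 lower (3.28%) and 253 higher (2.11%), and these included all 83. The plot of change against level shows where these genes lie.

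**Figure D1:**
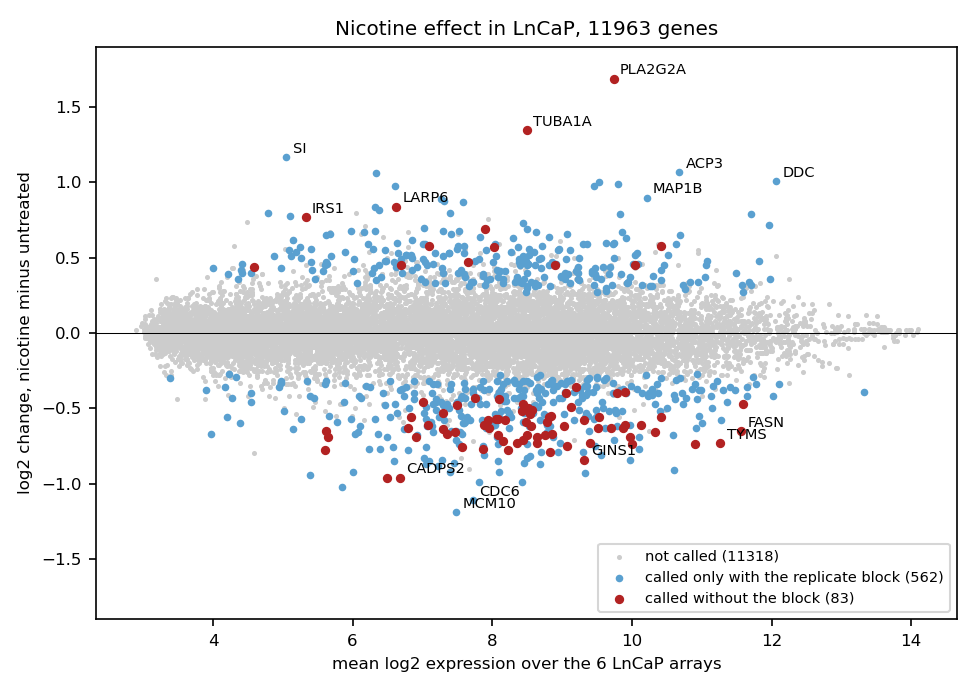
Change in log2 expression, nicotine minus untreated, of each of the 11963 genes against its mean log2 expression over the 6 LnCaP arrays. Red points are the 83 genes called without the block, blue points the 562 called only with the replicate block, and grey points the 11318 not called. Falls outnumber rises among the red points (70 against 13), and PLA2G2A is the highest point at 1.69.

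The number of called genes changed with the arrays included. Without untreated replicate 3 or nicotine replicate 2, no gene was called by limma, although 1135 and 1074 genes had an unadjusted p under 0.05. Without untreated replicate 1, 2 genes were called, and without nicotine replicate 1, 27. Leaving out untreated replicate 2 or nicotine replicate 3 gave 82 and 108 calls. A fit of the 6 LnCaP arrays alone without the block called 1 gene, DDC, whereas with the block those 6 arrays called 328 genes, 72 of the 83 among them. With the block and 1 pair left out, 216, 205 and 165 genes were called without pair 1, 2 and 3, and these held 55, 56 and 46 of the 83.

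Of the 70 falls, 30 lay among the 103 genes measured in the lists of mitosis and 9 among the 84 in the lists of DNA replication and repair. With the block, 67 and 46 of these were called lower, and none of the 187 was called higher in either fit. Of all genes, 0.585% were called lower without the block, and the block called 3.28% lower and 2.11% higher. The list counts that follow are to be read beside these shares. In RNA from whole cultures, fewer dividing cells and less of these transcripts per cell cannot be told apart. KIF4A encodes a kinesin that works on chromosome arms and at the midzone of the anaphase spindle. Its log2 expression was 8.47, 8.80 and 8.58 in untreated replicates 1, 2 and 3 and 7.97, 7.79 and 7.74 in treated replicates 1, 2 and 3. All treated arrays lay below all untreated arrays, and KIF4A fell by 0.78 ± 0.11 (SE, n = 3 per group, limma adjusted p = 0.0192). The pair differences were -0.49, -1.0 and -0.84. Of the 13 mitotic kinesins measured, 4 were called lower (KIF4A, KIF11, KIF18B and KIF23), 7 were called lower with the block, and all 13 had a negative change, with a median of -0.58 against -0.001 for all genes. KIF23, a motor of cytokinesis, went from 6.04, 5.93 and 5.89 to 5.19, 5.30 and 5.41, and KIF11, the motor that pushes spindle poles apart, changed by -0.63 ± 0.11.

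The kinetochore, the protein plate that joins a chromosome to the spindle, had the most called members of any group. Of 22 kinetochore and centromere genes measured, 8 fell and 16 were called lower with the block, all 22 changes were negative, and the median was -0.64. ZWINT, which links the outer kinetochore to the spindle checkpoint, stood at 11.36, 11.10 and 11.33 in untreated cells and at 10.67, 10.36 and 10.55 in treated cells. BIRC5, which encodes survivin of the chromosomal passenger complex, went from 10.28, 10.33 and 10.49 to 9.74, 9.54 and 9.60. HJURP and OIP5 load the centromeric histone, and they changed by -0.68 ± 0.11 (adjusted p = 0.0232) and -0.79 ± 0.13 (adjusted p = 0.0233). The other called members were CENPN, CDCA8, SPAG5 and TRIP13. The untreated and treated values of these 8 genes did not overlap, which was largely set by their being called on these arrays. The same held for 19 of the 22, against 10.1% of all genes with treated arrays all lower. ZWILCH, a subunit of a spindle checkpoint complex at the outer kinetochore, missed the threshold at -0.79 ± 0.16 (adjusted p = 0.051) and was called with the block (adjusted p = 0.00435).

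Kinases and cyclins of mitosis behaved alike in direction. Of 13 mitotic kinases, 4 fell (PLK4, BUB1B, PBK and TTK), 9 were called lower with the block and all 13 changes were negative. PLK4, which starts the copying of centrioles, was at 8.40, 8.04 and 8.30 untreated and 7.57, 7.30 and 7.56 treated. BUB1B and TTK, kinases of the spindle checkpoint, changed by -0.63 ± 0.09 (adjusted p = 0.0192) and -0.67 (adjusted p = 0.0394). The Aurora kinase AURKB, which corrects faulty attachments, had treated values of 6.93, 6.62 and 7.04 against 7.80, 7.50 and 7.80, with an adjusted p of 0.0612 without the block and 0.00435 with it. PLK1 (-0.52) and AURKA (-0.62) were called with the block only, at adjusted p = 0.0396 and 0.0147. CDK1 was at -0.42 and passed neither test (adjusted p = 0.0512 with the block).

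Of 16 cyclins and division phosphatases, CCNA2, CKS1B and CKS2 fell and 9 genes were called lower with the block. CCNA2 encodes cyclin A, the partner of the CDKs in S phase and early mitosis, and went from 8.87, 9.17 and 8.89 to 8.48, 8.11 and 8.27, with the smallest drop in pair 1. CKS1B, a small CDK-binding protein that also helps to degrade p27, went from 10.32, 10.20 and 10.41 to 9.59, 9.49 and 9.78, so that its SE was 0.09 for a change of -0.69 (adjusted p = 0.0192). CCNB1, the main mitotic cyclin, was at -0.51 and passed neither test (adjusted p = 0.122, with the block 0.0697). CCNE2, a cyclin of the entry into S phase, was at -0.83 and did not pass either (adjusted p = 0.264, with the block 0.0879).

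Chromosome structure and spindle genes followed. In the condensin, cohesin and chromosome structure group of 14, 5 genes fell, namely SMC2, NCAPG, NCAPD2, NCAPG2 and MKI67, and 11 were called lower with the block. NCAPG2, NCAPD2, NCAPG and SMC2 are all condensin subunits, which compact chromosomes. SMC2 had untreated values of 8.38, 8.19 and 8.22 and treated values of 7.63, 7.54 and 7.74. MKI67, the proliferation marker Ki-67 that coats mitotic chromosomes, went from 8.25, 8.36 and 7.98 to 7.61, 7.64 and 7.50. TOP2A, the topoisomerase that untangles sister chromatids, lay just past the threshold at -0.48 ± 0.10 (adjusted p = 0.0501, with the block 0.0131). Of 14 spindle and cytokinesis genes, TPX2, PRC1, NUSAP1, TACC3 and PIMREG fell and 12 were called lower with the block. PIMREG varied little within a group, at 8.94, 8.94 and 9.15 untreated and 8.21, 8.27 and 8.36 treated.

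The ubiquitin ligase that ends mitosis differed within its own group. Of 11 genes of the anaphase-promoting complex and its partners, UBE2C alone was called, at -0.61 (adjusted p = 0.0233), and CDC20 and FBXO5 were added by the block. UBE2C is the ubiquitin-conjugating enzyme of the complex, CDC20 its activator and FBXO5 its inhibitor. The median over the 11 was -0.08, and 4 changes were positive. CDC20 went from 9.87, 10.18 and 10.23 to 9.48, 9.42 and 9.25, a change of -0.71 (adjusted p = 0.0923, with the block 0.0122). The plot of division and replication genes shows each array.

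**Figure D2:**
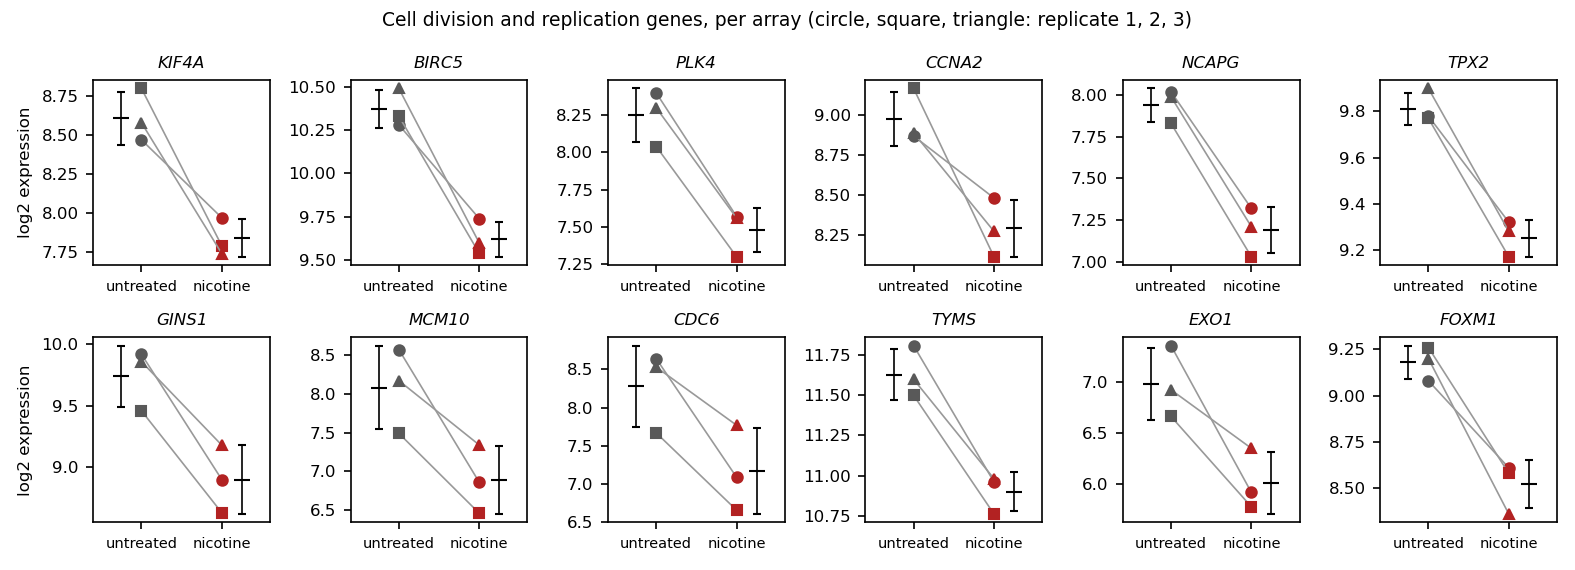
Log2 expression per array of 12 genes of cell division and DNA replication in untreated (grey) and nicotine-treated (red) LnCaP cells. Circles, squares and triangles are replicates 1, 2 and 3, lines join arrays of the same number, and bars give the mean ± SD of 3 arrays. The lines fall for all 12 genes; for MCM10 and CDC6 the untreated square, at 7.49 and 7.67, lies below the other untreated arrays, and for CDC6 the groups overlap.

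Because many of these genes fell together, their promoters were read for the elements named above. RefSeq promoters on GRCh38.p14, from 250 bases before to 50 bases after the start, were listed for 55 of the 70 genes that fell and 11 of the 13 that rose, and the first listed start was taken for each gene (PLA2G2A had 3). A CHR match was TTTGAA or TTCGAA and a CCAAT match was CCAAT, each on either strand, so that TTCAAA and ATTGG are the same elements read backwards. The promoters shown are those of the 5 genes with the largest falls that hold both elements, with the genes of 1 chromosome left out of the choice, and that of PLA2G2A, the largest rise. Sequences run 5′ to 3′ on the gene's strand, and capitals mark the CHR and CCAAT matches.
OIP5, chr15:41332542-41332841, minus strand: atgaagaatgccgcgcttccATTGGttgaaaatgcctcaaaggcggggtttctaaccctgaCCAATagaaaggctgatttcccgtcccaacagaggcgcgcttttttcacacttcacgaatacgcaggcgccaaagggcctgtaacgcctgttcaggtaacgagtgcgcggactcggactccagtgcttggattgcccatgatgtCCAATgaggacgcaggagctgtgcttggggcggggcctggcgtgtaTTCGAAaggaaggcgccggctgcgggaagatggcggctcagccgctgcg
KIF4A, chrX:70289854-70290153, plus strand: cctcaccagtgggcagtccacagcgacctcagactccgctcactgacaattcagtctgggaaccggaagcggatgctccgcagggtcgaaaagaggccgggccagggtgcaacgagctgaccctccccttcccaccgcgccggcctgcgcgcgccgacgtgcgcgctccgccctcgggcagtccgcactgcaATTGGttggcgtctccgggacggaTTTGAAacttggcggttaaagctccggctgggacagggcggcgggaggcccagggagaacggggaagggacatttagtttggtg
ZWINT, chr10:56361210-56361509, minus strand: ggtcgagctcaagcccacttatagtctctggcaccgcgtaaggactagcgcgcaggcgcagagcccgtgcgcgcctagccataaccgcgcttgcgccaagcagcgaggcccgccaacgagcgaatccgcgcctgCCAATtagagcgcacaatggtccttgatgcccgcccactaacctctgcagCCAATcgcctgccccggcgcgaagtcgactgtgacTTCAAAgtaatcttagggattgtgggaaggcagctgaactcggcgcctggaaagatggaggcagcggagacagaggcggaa
CKS1B, chr1:154974431-154974730, plus strand: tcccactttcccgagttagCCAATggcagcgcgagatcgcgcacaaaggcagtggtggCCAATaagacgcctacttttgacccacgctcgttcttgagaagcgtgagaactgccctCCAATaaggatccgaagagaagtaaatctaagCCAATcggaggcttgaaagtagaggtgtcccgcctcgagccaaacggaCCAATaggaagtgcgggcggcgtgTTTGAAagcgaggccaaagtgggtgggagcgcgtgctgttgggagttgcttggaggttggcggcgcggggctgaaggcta
HJURP, chr2:233854486-233854785, minus strand: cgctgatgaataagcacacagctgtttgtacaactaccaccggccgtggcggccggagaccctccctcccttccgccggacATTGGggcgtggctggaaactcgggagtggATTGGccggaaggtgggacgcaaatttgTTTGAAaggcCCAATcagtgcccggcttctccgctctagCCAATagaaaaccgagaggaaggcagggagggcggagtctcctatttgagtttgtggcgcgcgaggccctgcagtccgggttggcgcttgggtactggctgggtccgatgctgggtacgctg
PLA2G2A, chr1:19979610-19979909, minus strand: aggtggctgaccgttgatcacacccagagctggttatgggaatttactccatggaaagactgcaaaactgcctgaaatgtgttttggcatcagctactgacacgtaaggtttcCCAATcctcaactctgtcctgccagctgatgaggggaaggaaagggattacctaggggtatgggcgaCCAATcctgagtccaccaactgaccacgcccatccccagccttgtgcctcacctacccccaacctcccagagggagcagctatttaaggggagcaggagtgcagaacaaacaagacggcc

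In the promoters of OIP5, KIF4A, ZWINT, CKS1B and HJURP, which were chosen for holding both elements, the CHR match stood once, and CCAAT between 1 and 5 times. The PLA2G2A promoter, chosen without that condition, held 2 CCAAT matches and no CHR match. Because of this choice, the printed promoters do not compare falls with rises. A CHR match was present in 30 of the 55 promoters of genes that fell (54.5%), in 1 of the 11 of genes that rose (9.09%), in 12.4% of the 9563 promoters of all measured genes and in 16.6% of all 27305 promoters in the table. CCAAT was present in 56.4% of the falls, 27.3% of the rises, 37.3% of measured genes and 35.7% of all promoters. Both together were present in 20 of the 55 (36.4%), 0 of the 11, 5.25% and 6.58%. Close to the start, from 100 bases before to 50 after, 45.5% of the falls and 4.99% of measured genes held a CHR match. The E2F-type letters were TTCCCGC, its variant form TTCGCGC, the further variant TTGCCGC and, as the last variant, TTGGCGC, on either strand. They were found in 34.5% of the falls, 9.09% of the rises, 18.7% of measured genes and 13.1% of all promoters. Among the 327 promoters of genes called lower with the block, the shares were 28.7% for CHR, 51.7% for CCAAT and 34.3% for E2F-type letters. A match is a run of letters, not a shown binding site.

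Of the 84 replication and repair genes, 9 were called without the block and 46 with it, and their median change was -0.53, against -0.57 for the 103 mitosis genes. The replicative helicase, which unwinds DNA at the fork, had 11 measured members with a median change of -0.82 and a range from -1.19 to -0.56, but GINS1 alone was called, while 10 were called lower with the block. GINS1, a subunit of the helicase, went from 9.92, 9.46 and 9.86 to 8.90, 8.63 and 9.18, a change of -0.84 (adjusted p = 0.0394). MCM10, which helps to activate the helicase, had the most negative change of all genes. Its values were 8.57, 7.49 and 8.17 untreated and 6.86, 6.46 and 7.34 treated, a change of -1.19 with an adjusted p of 0.0824, and of 0.0123 with the block. Untreated replicate 2 was the lowest untreated array for MCM10, for GINS1 and for CDC45, another helicase subunit, whose values were 8.58, 7.83 and 8.48 untreated and 7.30, 6.93 and 7.70 treated. All 11 helicase genes were lower in all 3 pairs, against 21.8% of all genes. For 6 of the 11 the treated arrays all lay below the untreated ones, against 10.1% of all genes.

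Origin licensing loads the helicases before S phase. Of its 11 genes, DBF4 fell and 7 were called lower with the block. DBF4, the regulatory subunit of the CDC7 kinase, was at 7.80, 7.74 and 7.83 untreated and 7.29, 7.0 and 7.10 treated (adjusted p = 0.0192). CDC6, a loading factor, changed more, from 8.64, 7.67 and 8.53 to 7.09, 6.66 and 7.77, yet untreated replicate 2 lay below treated replicate 3. Its change of -1.11 had an adjusted p of 0.0998, and of 0.01 with the block. ORC1 and ORC6, subunits of the origin recognition complex, were at -0.92 and -0.85 and were called with the block only (adjusted p = 0.0108 and 0.00986).

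Of 26 polymerase, clamp and Okazaki fragment genes, LIG1, the ligase that joins Okazaki fragments, and TIMELESS, which stabilises the fork, were the 2 that fell. With the block, 15 were called lower, and all 26 were lower in all 3 pairs, against 21.8% of all genes. LIG1 went from 7.45, 7.36 and 7.37 to 6.90, 6.72 and 6.72. PCNA, the sliding clamp, was at 11.49, 11.12 and 11.28 untreated and 10.68, 10.40 and 11.00 treated, a change of -0.60 (adjusted p = 0.0815, with the block 0.0192). FEN1, the flap nuclease, had treated values of 8.60, 8.65 and 9.33, and treated replicate 3 lay above the 9.17 of untreated replicate 2. In the supply of deoxynucleotides, TYMS and SLC29A1 fell out of 14 genes, and 6 were called with the block. TYMS, thymidylate synthase, went from 11.81, 11.50 and 11.60 to 10.96, 10.76 and 10.98, and SLC29A1 is a nucleoside transporter, at -0.64 (adjusted p = 0.0424). RRM2, the regulated subunit of ribonucleotide reductase, was at -0.91 (adjusted p = 0.0889, with the block 0.0234).

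Of 18 homologous recombination and Fanconi genes, EXO1, FANCI and RAD51AP1 fell and 8 were called lower with the block. EXO1, a nuclease that resects DNA ends, had values of 7.35, 6.66 and 6.92 untreated and 5.92, 5.78 and 6.35 treated. FANCI, part of the complex that marks crosslinked DNA, went from 9.25, 8.93 and 9.08 to 8.47, 8.30 and 8.45 (adjusted p = 0.0233). Of the 4 mismatch repair genes measured, none passed in either fit, and their median change was -0.10. Over the pairs, the helicase, licensing, polymerase, deoxynucleotide and recombination groups had their most negative median in pair 1, at -1.14, -0.52, -0.70, -0.42 and -0.55. The kinesin, mitotic kinase, cyclin, kinetochore, condensin and spindle groups had theirs in pair 2, at -0.77, -0.79, -0.68, -0.63, -0.60 and -0.83. Some margins were small: the kinetochore group was at -0.634 in pair 2 and -0.628 in pair 3. Licensing was at -0.52 in pair 1 and -0.485 in pair 2. The mitotic exit and mismatch repair groups had theirs in pair 3, at -0.18 and -0.17. These pair medians are descriptions of 3 pairs and were not tested against each other, and the data do not settle the pairing of numbers 1 and 2. The plot of gene lists by pair shows them.

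**Figure D3:**
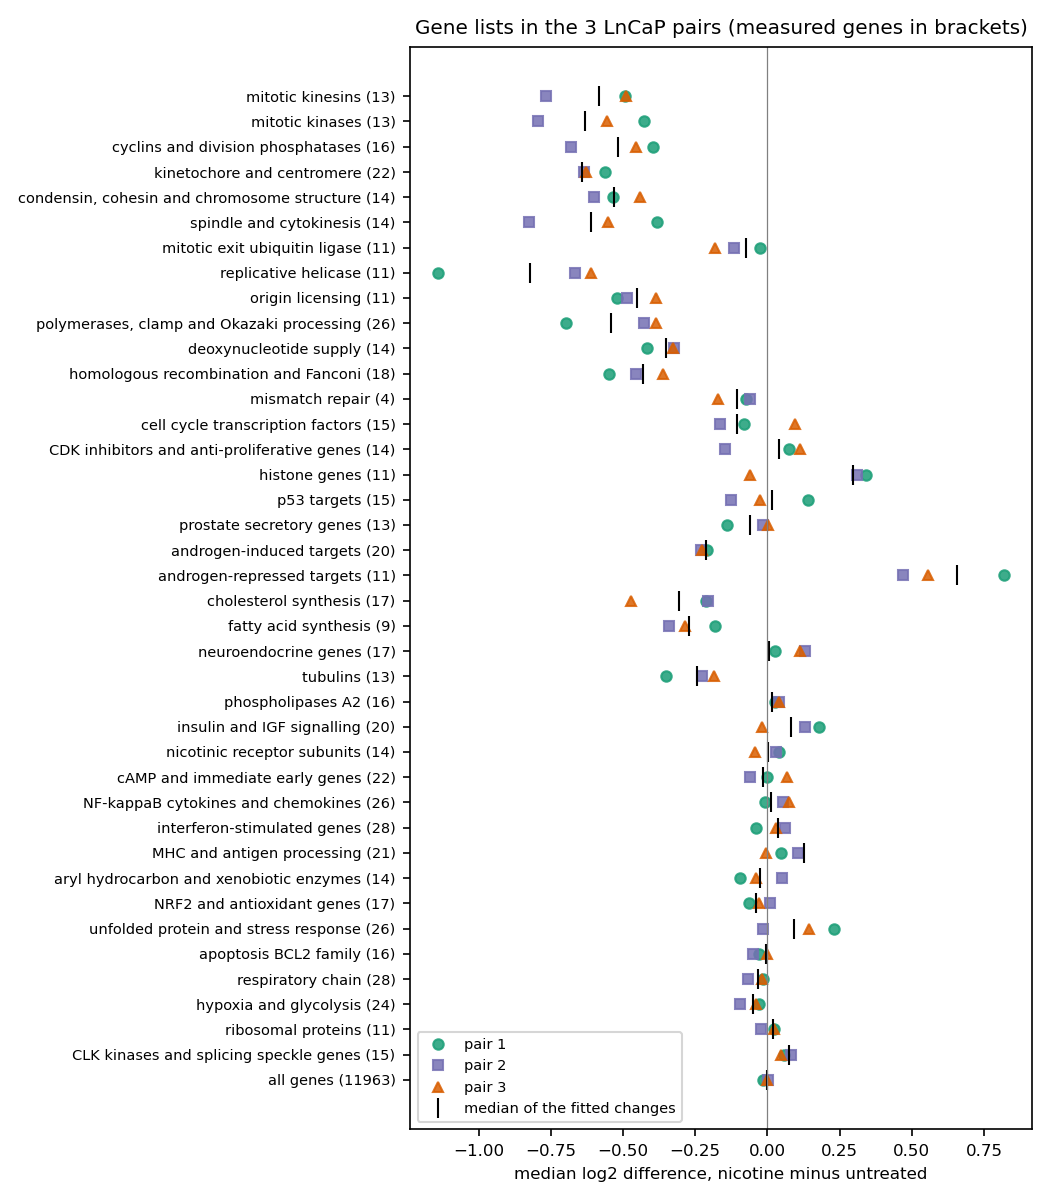
Median difference in log2 expression, nicotine minus untreated, of each gene list in pairs 1, 2 and 3 of LnCaP arrays, with the number of measured genes in brackets and a black tick at the median of the fitted changes. The division and replication lists lie left of 0 in all 3 pairs, except that the mitotic exit ligase list is near 0; the androgen-repressed list lies right of 0 in all 3 pairs (0.82, 0.47 and 0.56), and all genes together lie at 0.

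Of 15 cell cycle transcription factors, FOXM1 and MYBL2 fell. FOXM1 went from 9.08, 9.26 and 9.20 to 8.61, 8.58 and 8.36, a change of -0.67 ± 0.10 (adjusted p = 0.02), and MYBL2, which encodes B-MYB, from 8.92, 8.59 and 8.88 to 8.02, 8.01 and 8.20 (adjusted p = 0.0277). E2F8, a repressor induced at the start of S phase, was at -1.02 (adjusted p = 0.0822) and was called with the block (0.0206). The other 12 passed neither test, LIN37, a subunit of the MuvB complex, among them (0.10, adjusted p = 0.852). Of 14 CDK inhibitors and anti-proliferative genes, none was called, and CDKN3, a CDK phosphatase whose transcript rises in mitosis, was called lower with the block at -0.81 (adjusted p = 0.00508). CDKN1A, which encodes p21, was at -0.09 (adjusted p = 0.926), CDKN1B, which encodes p27, at 0.22 (adjusted p = 0.524), and CDKN1C, which encodes p57, at 0.53 (adjusted p = 0.565). Of 15 p53 targets, none was called, while SESN1, a stress sensor, was called higher (0.42) and FAS, a death receptor, lower (-0.44) with the block. Over all genes the block called 2.11% higher and 3.28% lower. Among 11 histone genes, H3C6 rose from 7.78, 7.75 and 7.71 to 8.41, 8.40 and 8.13 (adjusted p = 0.0233), and H2AX was called lower with the block at -0.42. The change of H3C6 in 22RV1 was 0.57 too, where it was not called (adjusted p = 0.46).

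Outside the gene lists, 35 called genes remained. CADPS2, a factor for the release of dense-core vesicles, had untreated values of 6.77, 7.42 and 7.30 and treated values of 6.34, 6.02 and 6.25, a change of -0.96 (adjusted p = 0.0232), which is as large as that of EXO1. CLEC7A, known as the beta-glucan receptor dectin-1 of myeloid cells, was at 5.71, 6.14 and 6.14 untreated and 5.17, 4.94 and 5.52 treated (adjusted p = 0.0394), and the leukocyte marker PTPRC stood at 4.15 and 4.25 in the untreated and treated means. CHEK2, the checkpoint kinase downstream of ATM, went from 8.58, 8.32 and 8.36 to 7.79, 7.67 and 7.76 (adjusted p = 0.0477). Other falls of the named set included RNASEH2A, a subunit of the enzyme that removes RNA from DNA, and DSN1, a kinetochore protein. Chosen after their values were seen, GAL, the neuropeptide galanin, fell by 0.55 (adjusted p = 0.0381) and SCARB1, the receptor for high-density lipoprotein, fell by 0.54 (adjusted p = 0.0381).

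PLA2G2A had the largest rise of all genes. It encodes a secreted phospholipase A2 of inflammation that releases fatty acids from phospholipids. Its log2 expression was 8.42, 9.43 and 8.82 in untreated replicates and 10.14, 10.78 and 10.84 in treated replicates. No treated array overlapped an untreated one, and the change of 1.69 ± 0.23 was a 3.23-fold rise (adjusted p = 0.0192, with the block 0.00189). It stayed between 1.46 and 1.96 when any 1 LnCaP array was left out, but its adjusted p passed 0.05 without untreated replicate 1 (0.051) or 3 (0.0602) and without nicotine replicate 2 (0.115). Of the 16 phospholipase A2 genes measured, PLAAT3 was the other called with the block, at 0.40 (adjusted p = 0.0115), and the median of the 16 was 0.01.

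TUBA1A, an alpha-tubulin typical of neurons, rose by 1.35 (adjusted p = 0.0407). Its untreated values of 8.35, 8.07 and 7.03 were spread widely because replicate 3 was low, while its treated values were 9.25, 8.94 and 9.30. Without untreated replicate 3 the change was 0.95, and without the arrays numbered 3 it was 0.88. The call was lost without any 1 of the 6 LnCaP arrays: the adjusted p was 0.051, 0.0519 and 0.0602 without untreated replicate 1, 2 and 3, and 0.128, 0.134 and 0.0722 without nicotine replicate 1, 2 and 3. TUBG1, the gamma-tubulin that nucleates microtubules, fell from 10.73, 10.53 and 10.83 to 10.04, 10.13 and 10.24 (adjusted p = 0.0265). Of the 13 tubulins, the block added TUBB6 as higher (0.68) and TUBA1B (-0.39) and TUBA4A (-0.47) as lower. It called 2.11% of all genes higher and 3.28% lower.

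LARP6, an RNA-binding protein known for its binding of collagen mRNAs, rose from 6.19, 6.36 and 6.05 to 7.17, 7.16 and 6.78. IRS1, the adaptor that passes on the signal of the insulin and IGF-1 receptors, rose from 4.95, 5.20 and 4.66 to 5.82, 5.49 and 5.82, a change of 0.77 (adjusted p = 0.0394). Its untreated level was low, and the call did not hold with most single arrays left out. The limma adjusted p was 0.104 and 0.124 without untreated replicates 1 and 3. It was 0.128, 0.115 and 0.0716 without nicotine replicates 1, 2 and 3. Of 20 insulin and IGF genes, the block added the receptor-binding adaptor GRB10 (0.79), SHC2 (0.49) and FOXO3 (0.46), the factor that insulin signalling keeps out of the nucleus, all higher. It called 2.11% of all genes higher. SSBP2, a single-stranded DNA-binding protein that acts in transcription complexes, rose from 7.40, 7.61 and 7.64 to 8.19, 8.30 and 8.22. The other rises were those of CRAT (0.45), carnitine acetyltransferase, RASSF2 (0.44), a Ras-binding protein, WASL (0.47), an activator of actin branching, FAM13A (0.58), LYRM9 (0.45), B3GALT4 (0.58), a galactosyltransferase of gangliosides, and CPE. CPE, which trims prohormones, went from 9.94, 9.78 and 9.73 to 10.28, 10.37 and 10.16. RASSF2 had a low level, with a mean of 4.25 over the 12 arrays. With the mean of a gene's probe sets in place of the highest one, B3GALT4 was at 0.26 (adjusted p = 0.0934) and WASL at 0.30 (adjusted p = 0.16), and neither was called.

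Androgen-regulated genes were called almost only with the block. Of 11 genes that androgen lowers, none was called and 7 were called higher with the block, with 10 of 11 changes positive and a median of 0.66. Over all genes the block called 2.11% higher, and 5934 of 11963 changes were positive. The lists were chosen with earlier results of these data known, so such counts describe a list and do not test it. The 7 genes were SI, OPRK1, DDC, BCHE, CAMK2N1, MMP16 and UGT2B17. OPRK1, the kappa opioid receptor, was at 5.96, 6.13 and 5.30 untreated and 7.30, 7.15 and 6.13 treated, so replicate 3 was the lowest array of both groups and the groups met at 6.13. Its change was 1.06 (adjusted p = 0.103, with the block 0.00435). BCHE, butyrylcholinesterase, an enzyme that splits choline esters, went from 9.60, 9.42 and 8.06 to 10.53, 10.01 and 9.54 (adjusted p = 0.44, with the block 0.011). SI, sucrase-isomaltase, was at 4.61, 4.48 and 4.31 untreated and 6.05, 5.97 and 4.87 treated (adjusted p = 0.363, with the block 0.0187).

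DDC, which makes dopamine and serotonin from their precursors, was called by the LnCaP arrays on their own. It was at 11.58, 11.48 and 11.63 untreated and at 12.50, 12.55 and 12.67 treated. With a change of 1.01, it was the 1 gene that limma called there without the block (SE 0.09, adjusted p = 0.03). The limma fit of all 12 arrays with the block called it too (adjusted p = 0.00435). In the fit of all 12 arrays without the block the SE was 0.42 and the adjusted p 0.348, and the untreated 22RV1 arrays spread from 7.17 to 9.01. DDC is further a gene of the neuroendocrine list, in which CPE was called of 17 genes measured. The block added DDC, NTS (0.80), PCSK1N (0.47) and ENO2 (0.45), all higher, and it called 2.11% of all genes higher. NTS had a low level, at 4.39 untreated and 5.19 treated. The defining neuroendocrine genes CHGA and SYP were at -0.01 and 0.00 (adjusted p = 0.994 for both), and the median of the list was 0.00.

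Of the genes that androgen raises, 17 of 20 had a negative change, against 6029 of 11963 over all genes, and their median was -0.21. CENPN, a centromere gene already counted above, was the 1 called, and the block added KLK2, HPGD, FKBP5 and NCAPD3 as lower and MAF as higher. It called 3.28% of all genes lower and 2.11% higher. KLK2, a secreted kallikrein, was at 10.74, 10.70 and 10.03 untreated and 9.79, 9.67 and 9.70 treated, a change of -0.77 (adjusted p = 0.424, with the block 0.0133). KLK3, its neighbour in the kallikrein cluster, was at 12.99, 13.05 and 13.12 untreated and 12.67, 12.67 and 13.14 treated, a change of -0.23 that passed neither test (adjusted p = 0.894, with the block 0.206). FKBP5, a co-chaperone of steroid receptors, was at -0.60 (adjusted p = 0.392, with the block 0.0428), and HPGD, which inactivates prostaglandins, at -0.94 (adjusted p = 0.0766, with the block 0.023).

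The prostate secretory genes moved in different directions. ACP3, prostatic acid phosphatase, was at 9.48, 10.13 and 10.83 untreated and 10.66, 11.12 and 11.85 treated. The groups overlapped, and the level differed between replicate numbers in both of them, while the 3 pair differences were 1.19, 0.99 and 1.02. The change of 1.07 had an adjusted p of 0.173 without the block and of 0.00435 with it. AZGP1, a zinc-binding secreted glycoprotein, went from 7.67, 7.70 and 8.15 to 6.95, 7.05 and 7.40, a change of -0.71 (adjusted p = 0.0529, with the block 0.00435). MSMB, a major protein of prostatic fluid, changed by -0.60 (adjusted p = 0.131, with the block 0.00696). Its level was low, at 4.69 untreated and 4.09 treated, near the medians of the basal and leukocyte markers. Of 13 secretory genes, then, 0 were called without the block, and ACP3 as higher and KLK2, AZGP1 and MSMB as lower with it. By comparison, 2.11% of all genes were called higher and 3.28% lower with the block.

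Of the lipid synthesis genes, FASN was called. This fatty acid synthase fell from 11.70, 12.02 and 11.95 to 11.22, 11.30 and 11.19 (-0.65, adjusted p = 0.0407; -0.39 and not called, at 0.0682, with the mean of its probe sets), and the block added ELOVL6, FADS2 and SCD, which lengthen or desaturate fatty acids, out of 9 genes. Of 17 cholesterol synthesis genes none was called, 8 were called lower and 1 higher with the block. By comparison, the block called 3.28% of all genes lower and 2.11% higher. INSIG1, the sterol sensor partner that holds back SREBP, was at 11.38, 11.13 and 11.15 untreated and 10.87, 10.47 and 10.45 treated (adjusted p = 0.114, with the block 0.00547). EBP, a sterol isomerase, went from 10.80, 10.63 and 11.35 to 10.18, 10.04 and 10.51 (adjusted p = 0.167, with the block 0.00563). SQLE (-0.53), MSMO1 (-0.42), FDPS (-0.43), DHCR7 (-0.40), IDI1 (-0.37) and MVK (-0.31) completed the lower calls, and TM7SF2, a sterol reductase, was called higher (0.37). The plot of further genes shows several of these per array.

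**Figure D4:**
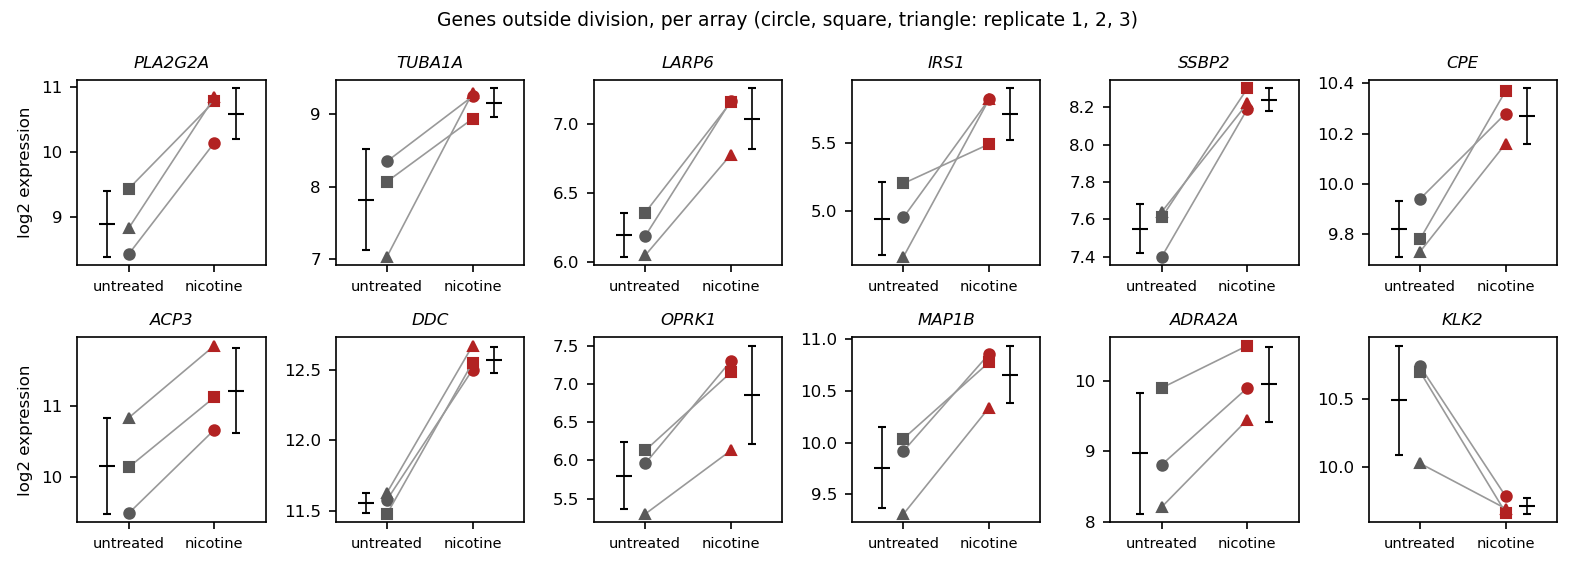
Log2 expression per array of 12 further genes in untreated (grey) and nicotine-treated (red) LnCaP cells; circles, squares and triangles are replicates 1, 2 and 3, lines join arrays of the same number and bars give the mean ± SD of 3 arrays. PLA2G2A, TUBA1A, LARP6, IRS1, SSBP2 and CPE rose. In the fits of all 12 arrays, ACP3, DDC, OPRK1, MAP1B and ADRA2A were called higher and KLK2 lower only with the replicate block. The ACP3, OPRK1 and ADRA2A lines all slope upwards while their groups overlap.

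Further genes with large changes were called with the block only. ADRA2A, an alpha2 adrenergic receptor, was at 8.81, 9.90 and 8.21 untreated and 9.90, 10.50 and 9.45 treated, so the groups overlapped while all 3 pair differences were positive (1.09, 0.6 and 1.24). MAP1B, a microtubule-associated protein of axons, went from 9.92, 10.04 and 9.31 to 10.86, 10.78 and 10.34 (0.90, adjusted p = 0.397, with the block 0.00435). MANEA and MAN1A1, mannosidases that trim N-glycans, were at 0.99 and 0.98, TFF3, a secreted trefoil peptide, at 0.87, and SYNGR3, a synaptic vesicle protein, at 0.84. Among the falls of this kind, ACTA2, smooth muscle actin, was at -0.99.

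Nicotinic receptor subunits did not pass in either fit. Of 14 measured, the changes ran from -0.33 to 0.37 and the median was 0.00. Several subunits had low untreated levels, such as CHRNA9 (3.45) and CHRNB4 (3.55), while CHRNB2 was at 7.95. CHRNA5 was at 7.31, 6.92 and 7.29 untreated and 6.83, 6.74 and 6.96 treated, which overlap at replicate 2 and replicate 3 (-0.33 ± 0.12, adjusted p = 0.232, with the block 0.0674). CHRNB1, the beta subunit of the muscle receptor, had the most positive change (0.37, adjusted p = 0.23, with the block 0.0786).

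The lists of immune and inflammation genes held no call without the block, near the 0.694% called over all genes; CLEC7A and PLA2G2A, described above, are in none of these lists. Of 26 NF-kappaB cytokines and chemokines, 0 were called in either limma fit and 1 had an unadjusted p under 0.05, against 1456 of all 11963 genes (12.2%). IL6 was at 5.22, 5.32 and 5.28 untreated and 5.29, 5.06 and 5.10 treated, and CXCL8 at 4.33, 4.19 and 3.96 and then 4.10, 4.12 and 4.24, so both overlapped. Many cytokines and chemokines had low levels, such as CXCL1 (3.40), CCL2 (3.50) and TNF (4.34) untreated, below the basal marker median of 4.36. For these the lack of a call says little. Other genes of the list were well above that, such as NFKBIA at 10.46. Of 28 interferon-stimulated genes, OAS3 (-0.57), a sensor of double-stranded RNA, and GBP2 (-0.42), a guanylate-binding protein, were called lower with the block, with 17 changes positive and 11 negative. Of 21 MHC and antigen processing genes, HLA-E (0.43), a ligand of natural killer cell receptors, was called higher with the block, and the median was 0.13. Of 22 cAMP and immediate early genes, KLF4 (-0.59) was called lower with the block. Over all genes the block called 2.11% higher and 3.28% lower. An unadjusted limma p under 0.05 was held by 2 of 28 interferon, 4 of 21 MHC and 0 of 22 cAMP genes. Beside the block's shares, 1 or 2 calls in lists of this size are not a result about the lists.

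Stress and housekeeping groups showed few calls or none. None of 14 aryl hydrocarbon and xenobiotic genes, 17 NRF2 and antioxidant genes, 16 BCL2 family genes, 28 respiratory chain genes or 11 ribosomal protein genes was called in either limma fit. The genes of these groups with an unadjusted p under 0.05 numbered 0, 0, 0, 2 and 0, against 12.2% of all genes. CYP1A1, a detoxifying enzyme induced by polycyclic hydrocarbons of smoke, was at 5.38, 5.22 and 5.28 untreated and 4.96, 5.24 and 5.25 treated (adjusted p = 0.895). That level was low, near the untreated endothelial marker median of 5.16. Of 26 genes of the unfolded protein response, DDIT3 (0.52), a transcription factor of that response, and SEL1L (0.36), which helps to export misfolded proteins, were called higher with the block. Of the 26 changes, 21 were positive, against 5934 of 11963 over all genes. Of 24 hypoxia and glycolysis genes, HK2 (-0.62), a hexokinase, was called lower and ENO2 (0.45), an enolase of neurons, higher with the block. Of 15 CLK and splicing speckle genes, the splicing kinase CLK1 (0.43) was called higher and the splicing factor SRSF3 (-0.34) lower with the block. Unadjusted limma p under 0.05 held for 7 of 26 unfolded protein, 3 of 24 hypoxia and 4 of 15 CLK and speckle genes. The share over all genes was 12.2%. Whether these lists shifted as a whole was not tested. As the block called 2.11% of all genes higher and 3.28% lower, the few block calls are not a result about the lists.

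The change in LnCaP was set against that in 22RV1, where limma called 0 genes with or without the block. Over the 103 mitosis genes the median was -0.57 in LnCaP and -0.21 in 22RV1, and over the 84 replication and repair genes -0.53 and -0.14, and these medians were not tested against each other. By list, the 22RV1 medians were -0.24 for kinesins, -0.26 for kinetochore genes and -0.22 for the helicase, where all 11 members were negative. The mitotic exit ligase list was at -0.08 in LnCaP and -0.09 in 22RV1, and mismatch repair at -0.10 and 0.11. The difference of the effects was called for no gene without the block, with 749 genes at an unadjusted p under 0.05, and for 19 genes (0.159%) with it. Of the division and replication genes, CENPI, an inner kinetochore protein, was the 1 among the 19, at -0.56 in LnCaP and 0.34 in 22RV1, and that gene was chosen after its values were seen. For KIF4A (-0.78 in LnCaP, a difference of -0.44) and GINS1 (a difference of -0.70) the test of the difference did not pass.

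Of the other genes whose effects differed with the block, PLA2G2A was at 5.31, 5.07 and 5.39 in untreated and 5.27, 5.27 and 5.44 in treated 22RV1 cells, and its effect was higher by 1.62 in LnCaP (adjusted p = 0.0333). DDC was at 7.46, 7.17 and 9.01 untreated and 7.24, 7.17 and 8.49 treated in 22RV1, a difference of 1.26 (adjusted p = 0.0333). INSIG1 was at 11.61, 11.25 and 11.67 untreated and 11.94, 11.46 and 12.01 treated in 22RV1, an effect of 0.29 that did not pass there, against -0.63 in LnCaP (adjusted p of the difference = 0.0333). EBP and IDI1, of the same pathway, had effects of 0.17 and 0.31 in 22RV1 against -0.68 and -0.37 in LnCaP. The 17 cholesterol genes had a median of 0.27 in 22RV1, where 1 of 17 was negative, and of -0.31 in LnCaP, where 14 were negative. The others of the 19, with values given as LnCaP minus 22RV1, were ADRA2A (1.30), NAP1L3 (1.29), GASK1B (1.05), B3GALT4 (0.79), SUSD4 (0.76), PLAAT3 (0.68), DNAAF5 (-0.67), AKAP12 (-0.70), AZGP1 (-0.76), MSMB (-0.77), TMEM97 (-0.81), LPIN1 (-0.86) and CAPN15 (-0.87). Those of them outside the rule for named genes are listed because the test called them. With 1 LnCaP pair left out, 0, 2 and 1 genes were called without pair 1, 2 and 3, so these calls rest on all 3 pairs. They also rest on the pairing of the 22RV1 arrays by number, which was not checked.

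**Figure D5:**
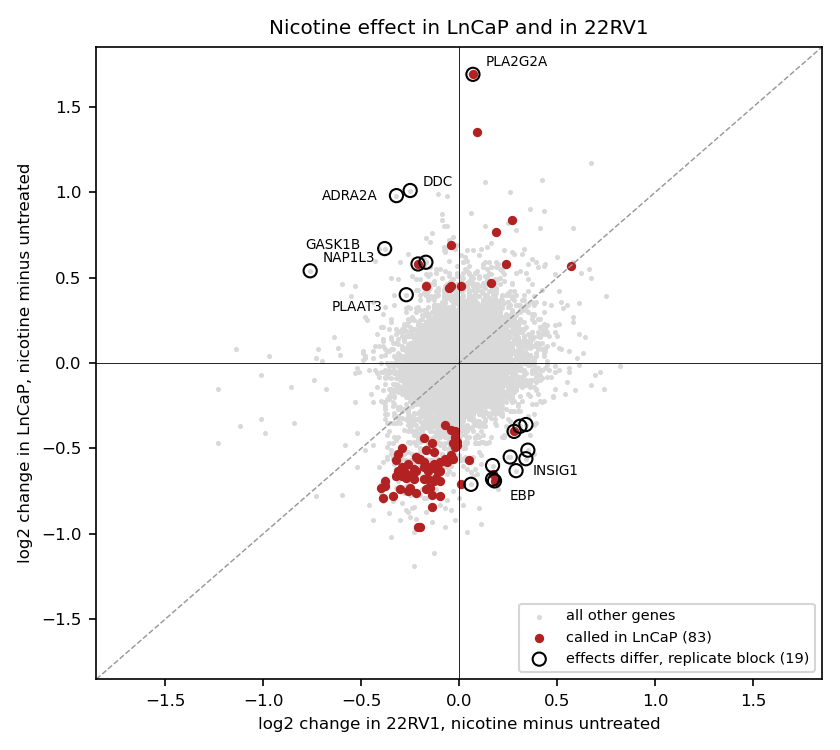
Change in log2 expression, nicotine minus untreated, in LnCaP (vertical axis) against 22RV1 (horizontal axis) for each gene; the dashed line marks equal changes. Red points are the 83 genes called in LnCaP and circles the 19 genes whose effects differ with the replicate block. Most red points lie below 0 on both axes and below the dashed line, while PLA2G2A lies at 1.69 in LnCaP and 0.07 in 22RV1.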

How the data were processed

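Gene expression was measured on 12 arrays of Affymetrix type, from TRIzol-extracted RNA labelled as biotin cRNA (per the labels' protocols). The authors deposited log2 expression values of 22277 probe sets; their normalization is not given in the sources used here, so no further step or filter was applied to the deposited values. A gene took the probe set of highest mean among those with 1 symbol in the platform annotation (19070; 1043 had several and 2164 were unlisted), which gave 11963 genes. Group means were fitted on all 12 arrays with limma 3.58.1 in R 4.3.3 (lmFit, eBayes, two-sided, Benjamini-Hochberg), which was tested on simulated data. All 12 arrays share 1 estimate of the spread, and array number limits precision.

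The deviations from the group mean of same-numbered untreated and treated LnCaP arrays correlated at 0.371, 0.225 and 0.599, all above 0.1, so the numbers, which the labels give, were taken as pairs. Untreated replicate 2 correlated higher with nicotine replicate 1 (0.27), so the data do not settle the pairing of numbers 1 and 2.

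Named genes were all 13 called rises, the 30 largest called falls, the 15 largest rises and 15 largest falls called only with the block, called members of each of 39 lists (up to 6 by size, otherwise the 2 of highest level), and KLK3, KLK2, CHRNA5, CYP1A1, IL6, CXCL8, CDKN1A and MKI67. Promoters were printed for the 5 largest called falls that hold CHR and CCAAT, with 1 chromosome left out, and for the largest called rise. Genes named beyond this rule, such as CDK1, CCNB1, CDKN1B and CHRNB1, were chosen after their values were seen. Of 719 listed symbols, 624 were measured. The comparison, members, lists and alternatives were chosen with earlier results of these data known. Lists were described by counts and medians, with no set test. Alternatives were the replicate block, the LnCaP arrays alone, left-out arrays and pairs, the arrays numbered 3 left out, a filter on the dimmest 25%, other probe set rules, other normalizations, array weights and another variance model. Promoter sequences are RefSeq's.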

Additional observations from a re-analysis of the deposited data

Results flagged for a closer look

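In the fit with the replicate block, the effect of nicotine differed between LnCaP and 22RV1 cells for 10 genes of the named set, by limma's test of the difference over all genes. Values are log2 effects in LnCaP minus 22RV1. Those higher in LnCaP were PLA2G2A (1.62, adjusted p = 0.0333), ADRA2A (1.30, adjusted p = 0.0432), DDC (1.26, adjusted p = 0.0333), B3GALT4 (0.79, adjusted p = 0.0432) and PLAAT3 (0.68, adjusted p = 0.0426). Those lower in LnCaP were INSIG1 (-0.92, adjusted p = 0.0333), CAPN15 (-0.87, adjusted p = 0.0426), EBP (-0.85, adjusted p = 0.0426), MSMB (-0.77, adjusted p = 0.0432) and AZGP1 (-0.76, adjusted p = 0.0426). MSMB had a low level in LnCaP, at 4.69 untreated and 4.09 treated. Without the block the smallest adjusted p for any difference was 0.205.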

How the results depend on the processing

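The 83 called genes became 645 with the replicate block, 1 with the LnCaP arrays alone, 328 with the LnCaP arrays alone and the block, 175 with array weights, 132 with a trended and robust spread, and 143 without the arrays numbered 3, of which 48 were among the 83. Leaving out 1 LnCaP array gave 0 to 108 calls. With the block and 1 pair left out there were 216, 205 and 165, and 179 with the block without the arrays numbered 3, an alternative chosen after seeing the data. Counts were 96 without the dimmest 25% of genes, 99 with the mean of probe sets, 105 over all probe sets, 67 after quantile normalization and 85 with array medians subtracted. The block called 19 differences between lines in place of 0, and 0, 2 and 1 with 1 pair left out. With the block, 28.7% of the promoters of falls held a CHR match. No called gene of the named set reversed its sign under any alternative run. Of the 54 called genes named, 9 lost the call after quantile normalization, 6 with the mean of probe sets (B3GALT4, WASL, PLK4, TYMS, FASN and SLC29A1) and 16 without the arrays numbered 3. Changes near 0 of genes not called did reverse. With 1 LnCaP array left out they ran from -0.04 to 0.04 for CHRNB2, -0.13 to 0.06 for NQO1, -0.00 to 0.06 for SOD1, -0.03 to 0.01 for RPS18, -0.02 to 0.01 for RPS24, -0.11 to 0.07 for CXCL8 and -0.27 to 0.05 for CDKN1A. With the block and 1 pair left out they ran from -0.03 to 0.03, -0.17 to 0.08, -0.00 to 0.05, -0.03 to 0.01, -0.02 to 0.01 and -0.15 to 0.10 for the first 6 (CXCL8 at 0.02 without pair 2). NQO1 was at 0.08 and RPS24 at 0.00 without the arrays numbered 3, also with the block, and RPS18 at 0.00 after quantile normalization. The cause was not tested. Of 546 list medians under alternatives, 491 stayed within 1 SD of the pairs and 55 moved further. With 3 arrays a group, the median SE of 0.11 limits what can be called.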
